A study of Mus musculus with 8 samples.

Results

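The effect of *Upf1* loss on sPre-B cells, the small resting pre-B cells that rearrange their light chain genes, was read as the difference between 2 libraries of cKO/Igh B1-8hi mice and 2 of Ctrl/Igh B1-8hi mice. All expressed genes were taken, which were the 17700 of 27179 listed genes that passed edgeR's expression filter. At least 1 count in these 4 libraries was found for 21961 genes. The 4 libraries belong to a series of 8, in which early LPre-B cells, the cycling stage that comes before, make up the other 4. Every mouse was Upf1 Flox/Flox with 1 rearranged heavy chain allele knocked in (Igh B1-8hi/+). Ctrl mice were Mb1 +/+ and cKO mice were Mb1 Cre/+, so that Cre was made from the *Cd79a* (Mb1) locus in the B lineage and removed exons 4 to 6 of *Upf1*. Cre and the altered *Cd79a* locus were present only in cKO mice, so their effects cannot be told apart from that of *Upf1* loss. The mice were 8 to 16 weeks old, of both sexes and, for the Mb1 and B1-8hi lines, of C57BL/6 background. With a heavy chain already assembled, these cells do not need to rearrange their own heavy chain genes to reach the sPre-B stage. They were sorted from bone marrow as lineage-, B220+, surface IgM-, CD43 low, CD25+, CD2+ cells of small size. RNA was depleted of ribosomal RNA and sequenced, and reads were aligned as unstranded and counted per gene. The strand setting of the counting is not given in the sources used here, so counts of overlapping and antisense genes are uncertain. Total counts were 81965096 and 68516857 for Ctrl and 84973705 and 118143514 for cKO sPre-B cells (replicates 1 and 2), at which 3 counts correspond to between 0.0254 and 0.0438 CPM (counts per 1000000 counts of the library, scaled with edgeR's TMM factors). The labels do not name the animals behind each library. The study's statistics section describes replicates in general as independent and biological, and the Ctrl libraries were of different sex (below), so they came from separate animals. The p-values measure the spread between libraries of a group, estimated over all 8 libraries of the series, which were treated as independent.

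UPF1 is the RNA helicase at the centre of nonsense-mediated mRNA decay (NMD), which removes transcripts whose translation ends well before the last exon junction. Such transcripts come from nonsense mutations, from exons that are spliced in to cut a gene's output, from noncoding host genes of small nucleolar RNAs and from stress genes with upstream reading frames. In the bone marrow, large pre-B cells divide under the pre-B cell receptor and IL-7, then leave the cell cycle, express the RAG recombinase and rearrange kappa or lambda light chain genes as sPre-B cells.

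The targeted gene was checked first. *Upf1* (chromosome 8, 70331493 to 70353423, mm10) was at 186 and 198 CPM in Ctrl and 282 and 293 in cKO, with a Log2FC (the log2 of cKO over Ctrl) of 0.59 ± 0.10 standard error (SE) and an adjusted *P* of 0.00245. A gene-level count covers all exons and shows neither the deleted exons nor the protein, for which an immunoblot of these cells exists that is not analysed here. *Cd79a* (chromosome 7, 24897497 to 24901858), the receptor chain gene that carries Cre, was at 1478 and 1602 CPM in Ctrl and 405 and 325 in cKO (Log2FC −2.08 ± 0.16 SE, adjusted *P* = 7.05e-05 by the quasi-likelihood test of edgeR), lower in both libraries labelled as Mb1 Cre/+. The sort markers *Il2ra* (CD25) and *Cd2* were present in all 4 libraries, at 476 and 479 against 481 and 532 CPM and at 178 and 161 against 150 and 135 CPM, and neither differed at an adjusted *P* under 0.05 (0.773 and 0.122). The libraries within a group were not alike in every respect. *Xist* and Y-linked counts put Ctrl replicate 2 apart as the only male-type library of the 4. The same library had 1643 CPM summed over 35 mitotic genes, against 2827 in Ctrl replicate 1 and 2696 and 3194 in cKO. Transcripts of megakaryocytes summed to 34.6 and 30.0 CPM in the 2 replicate 1 libraries and to 3.19 and 9.82 in the others. Those of stromal cells summed to 10.9 and 6.73 CPM in the replicate 1 libraries and to 1.49 and 2.23 in the others (Ctrl, then cKO). Interferon-stimulated genes set cKO replicate 2 apart, as given below with their values.

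At an adjusted *P* under 0.05 (edgeR's quasi-likelihood test over all genes tested), 3505 (19.8%) were higher and 2629 (14.9%) lower in cKO, the shares beside which counts of list members are to be read, and 559 (3.16%) and 251 (1.42%) changed by a Log2FC of at least 2. The median Log2FC was 0.01, with 5th and 95th percentiles of −1.17 and 1.73. In all 3505 higher genes both cKO libraries lay above both Ctrl libraries, as they did for 36.5% of all genes tested. The direction of change went with the level of a gene. Genes were placed in 4 bins of equal size by mean CPM. In the lowest bin 12.9% of genes were higher and 5.56% lower, whereas in the highest bin 17.9% were higher and 23.1% lower. Of the 3505 higher genes, 1762 (50.3%) were also higher in cKO early LPre-B cells, where they made up 68.7% of 2564, and of the 2629 lower genes 1536 (58.4%) were also lower there, 51.5% of 2983. Opposite changes at an adjusted *P* under 0.05 in the 2 stages were found for 68 genes higher and 33 lower in sPre-B cells. Tested directly, the effect differed between stages for 750 genes (4.24%), more positive in sPre-B cells for 467 and more negative for 283. This count was not stable: it was between 126 (without cKO early LPre-B replicate 1) and 902 (without Ctrl sPre-B replicate 1) when 1 library was left out, and 1718 with DESeq2.

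Host genes of small nucleolar RNAs (snoRNAs) were mostly higher in cKO cells. These are noncoding genes whose introns carry small nucleolar RNAs and whose spliced transcripts are textbook substrates of NMD. Of 19 tested, 12 were higher and none lower, with a median Log2FC of 1.55. *Snhg12* (chromosome 4, 132308678 to 132311024) was at 7.94 CPM in each Ctrl library and at 115 and 122 in cKO (Log2FC 3.90 ± 0.10 SE, adjusted *P* = 8.65e-07 by the quasi-likelihood test of edgeR), the lowest adjusted *P* of the list. *Zfas1* (chromosome 2, 167062934 to 167065862) was at 26.9 and 26.3 CPM in Ctrl and 263 and 293 in cKO (Log2FC 3.38 ± 0.14 SE, adjusted *P* = 9.44e-06). *Gas5* (chromosome 1, 161034601 to 161038539) was at 68.5 and 84.5 CPM against 294 and 297 (Log2FC 1.95 ± 0.12 SE, adjusted *P* = 2.99e-05). In each of these the gap between groups was many times the gap between replicates. *Snhg15*, *Snhg16*, *Epb41l4aos*, *Snhg1* and *Snhg5* were higher by a Log2FC between 2.64 and 4.11. *Snhg3*, *Snhg20* and *Dancr* had a Log2FC of −0.37, 0.10 and −0.28, none past the threshold. In 7 of the 19 the effect differed between stages, each time more negative in sPre-B cells, as in *Zfas1* with 3.38 against 4.88 in early LPre-B cells (difference −1.49, adjusted *P* = 0.00697), *Snhg12* with 3.90 against 4.85 (−0.96, adjusted *P* = 0.00884) and *Gas5* with 1.95 against 2.76 (−0.81, adjusted *P* = 0.0342).

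**Figure D1:**
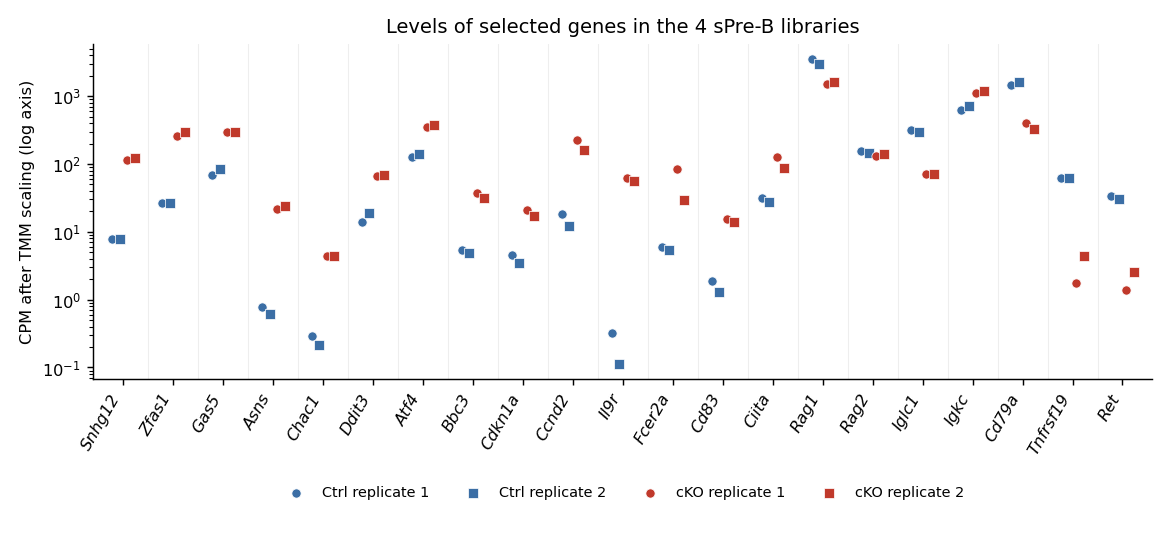
CPM on a log axis of 21 genes in the 4 sPre-B libraries, Ctrl in blue and cKO in red, circles for replicate 1 and squares for replicate 2, each point 1 library. Hosts, stress response genes, *Ccnd2* and *Il9r* sit higher in both cKO libraries, *Rag2* sits slightly lower in both without passing the threshold, and *Rag1*, *Iglc1*, *Cd79a*, *Tnfrsf19* and *Ret* sit lower in both.

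The genes of the decay machinery itself were higher by smaller steps. Of 12 NMD factors 8 were higher and 1 lower, with a median Log2FC of 0.45 and a largest change of 0.88. *Upf1* itself, with the values given above, is 1 of the 8. *Nbas* went from 44.5 and 39.3 CPM to 78.3 and 75.8 (Log2FC 0.88 ± 0.09 SE, adjusted *P* = 0.00025 by the quasi-likelihood test of edgeR). *Smg5*, an adaptor that recruits decay enzymes to phosphorylated UPF1, had a Log2FC of 0.57 (± 0.10 SE, adjusted *P* = 0.00313), and *Smg1*, the kinase that phosphorylates UPF1, 0.56 (± 0.13 SE, adjusted *P* = 0.0129). *Upf3a* was the member that was lower, at 21.8 and 23.2 CPM against 13.02 and 16.3 (Log2FC −0.61 ± 0.14 SE, adjusted *P* = 0.0095). *Smg9* and *Smg6* differed between the stages: their Log2FC was 0.13 and −0.24 in sPre-B cells and 1.12 and 0.47 in early LPre-B cells (adjusted *P* of the difference 0.011 and 0.0346). *Smg1* did not pass without Ctrl replicate 1, cKO replicate 1 or cKO replicate 2 (adjusted *P* = 0.0511 to 0.0786, the quantity given in brackets after other left-out libraries too). The count of 8 became 4 without Ctrl replicate 1 and 4 without cKO replicate 2, *Upf3a* did not pass without cKO replicate 1, and the lower factors were 2 without early LPre-B Ctrl replicate 1. Among 37 other mRNA decay factors 4 were higher and 5 lower with a median of 0.05, shares no larger than the 19.8% and 14.9% of all genes. The nuclear exonuclease *Xrn2*, at 202 and 206 against 381 and 424 CPM, had the largest increase among them (Log2FC 0.98 ± 0.11 SE, adjusted *P* = 0.00027). Leaving out single sPre-B libraries gave between 1 and 2 higher and between 3 and 4 lower factors in this list (the fewest higher without cKO replicate 2), and the lower factors were 8 without early LPre-B Ctrl replicate 1.

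Coding genes known as NMD substrates were more often higher than lower. Of 18 tested 11 were higher and 1 lower, with a median of 0.58. The count of higher genes was 7 without Ctrl replicate 1, and that of lower genes was 3 with DESeq2 or without early LPre-B Ctrl replicate 1 and 0 without Ctrl replicate 2, cKO replicate 1 or cKO replicate 2. Among the higher genes *Atf3*, *Atf4*, *Atf5*, *Chac1* and *Ddit3* also belong to the stress response list below. *Gadd45g*, a growth-arrest gene, went from 7.07 and 6.31 CPM to 47.0 and 34.95 (Log2FC 2.61 ± 0.17 SE, adjusted *P* = 3.36e-05 by the quasi-likelihood test of edgeR). *Eif4a2*, a translation factor whose gene makes a decay-prone isoform, had a Log2FC of 0.79 (± 0.13 SE, adjusted *P* = 0.00224). *Gadd45b*, a member of the same stress family, was at 29.6 and 33.1 CPM in Ctrl and 26.3 and 23.6 in cKO (Log2FC −0.33 ± 0.11 SE, adjusted *P* = 0.0529). It passed as lower in 5 alternatives, with an adjusted *P* of 0.024 by DESeq2 and 0.0343 with median-ratio factors. In early LPre-B cells its Log2FC was 1.58, and the difference between stages was −1.91 (adjusted *P* = 0.0027).

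The annotation gives a view that no list had to choose. A transcript was taken to fit the junction rule when its stop codon lay more than 50 bases before its last exon junction in GENCODE vM21. Of 3819 genes that have such a transcript only among those annotated for nonsense-mediated decay, 29.4% were higher and 12.2% lower, with a median Log2FC of 0.12. Of 10427 genes with no such transcript, 18.2% were higher and 16.8% lower, with a median of −0.01. The share of higher genes was above that of genes without such a transcript in each bin of mean CPM, with 17.2 against 13.3% in the lowest, 35.9 against 25.8% in the second, 34.2 against 21.1% in the third and 26.5 against 13.2% in the highest bin. The share of lower genes went the other way, from 4.34 against 5.36% in the lowest to 16.2 against 26.6% in the highest bin. Only 17 genes had the feature in every protein-coding transcript. Of these 6 (35.3%) were higher and none lower. Of 160 genes with it in some of their protein-coding transcripts 26.2% were higher and 20% lower, with a median of 0.01. Counts per gene do not show which transcript changed, and genes with more annotated transcripts are also better studied, so these shares are a description.

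**Figure D2:**
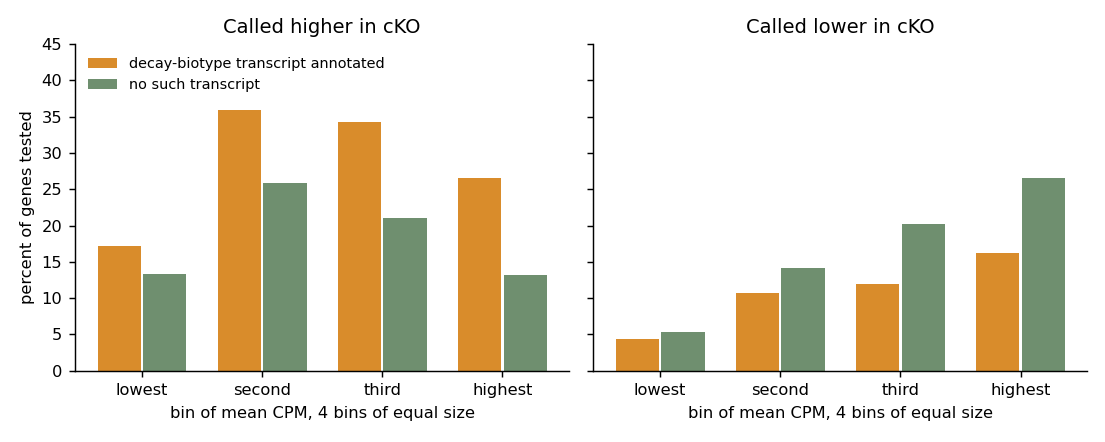
Percent of genes called higher (left) and lower (right) in cKO sPre-B cells by bin of mean CPM, for genes with a transcript annotated for nonsense-mediated decay (orange) and genes with none (green). The orange bars are higher than the green in all 4 bins on the left and lower in all 4 on the right.

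Some splicing factors limit their own output through decay-prone exons. Of 12 SR proteins 6 were higher and 2 lower (median 0.30). *Srsf3* (chromosome 17, 29032660 to 29043372), which binds exonic enhancers, was at 365 and 374 CPM in Ctrl and 969 and 1109 in cKO (Log2FC 1.49 ± 0.13 SE, adjusted *P* = 0.000102 by the quasi-likelihood test of edgeR). *Srsf11* had a Log2FC of 1.23 (± 0.10 SE, adjusted *P* = 7.79e-05), with 169 and 185 against 412 and 419 CPM. *Srsf5* and *Srsf1* were lower, with a Log2FC of −0.58 and −0.47, and 1 of the 2 passed without cKO replicate 1. The hnRNP proteins, which often act against SR proteins at splice sites, had 5 higher and 5 lower members of 23 and a median of 0.02, beside 19.8% and 14.9% of all genes. *Ptbp2*, the neuronal paralog of the polypyrimidine tract binding protein, had 59.8 and 80.4 CPM against 168 and 188 (Log2FC 1.35 ± 0.18 SE, adjusted *P* = 0.000896). *Hnrnpa1* had 305 and 291 against 140 and 152 CPM (Log2FC −1.03 ± 0.11 SE, adjusted *P* = 0.000255). The 5 higher hnRNP genes were 8 in the fit blocked on replicate number and 2 without Ctrl replicate 1, and the 5 lower genes were 2 without cKO replicate 1.

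Genes of the integrated stress response were more often higher than lower. In this pathway phosphorylation of eIF2 lowers general translation and lets ATF4 protein be made, which switches on genes for amino acid synthesis, import and tRNA charging. Of 35 genes 22 were higher and 2 lower, with a median Log2FC of 1.03. *Atf4* itself (chromosome 15, 80255184 to 80257545) was at 129 and 139 CPM in Ctrl and 355 and 380 in cKO (Log2FC 1.45 ± 0.12 SE, adjusted *P* = 7.41e-05 by the quasi-likelihood test of edgeR). *Asns* (chromosome 6, 7675165 to 7693209), which makes asparagine, had the largest change of the list, from 0.780 and 0.624 CPM to 22.1 and 24.01 (Log2FC 5.03 ± 0.18 SE, adjusted *P* = 7.08e-06). *Chac1* (chromosome 2, 119351242 to 119354326), which degrades glutathione, went from 0.296 and 0.213 to 4.41 and 4.33 CPM (Log2FC 4.09 ± 0.31 SE, adjusted *P* = 5.64e-05). *Ddit3* (CHOP, chromosome 10, 127290793 to 127296291), a death-promoting factor downstream of ATF4, went from 14.04 and 18.7 to 67.5 and 68.4 CPM (Log2FC 2.05 ± 0.13 SE, adjusted *P* = 3.56e-05). The cKO libraries differed from each other by far less than from Ctrl in all 4 genes. The 8 amino acid carriers of the list were unequal, with a Log2FC of 3.71 for *Slc7a3*, 3.45 for *Slc1a4*, 2.43 for *Slc7a5* and 1.86 for *Slc7a1*. *Slc38a2* and *Slc3a2* had 0.42 and 0.37 (adjusted *P* = 0.0297 and 0.0418). *Slc3a2* did not pass with DESeq2 (0.0572) or when any 1 of the sPre-B libraries was left out, and *Slc38a2* did not without Ctrl replicate 1, Ctrl replicate 2 or cKO replicate 2 (0.0539 to 0.173). *Slc7a11* and *Slc1a5* had −0.26 and −0.27 and did not pass (adjusted *P* = 0.695 and 0.203). The mitochondrial folate enzymes *Shmt2* and *Mthfd2* had 1.68 and 1.87, and the pseudokinase *Trib3*, a feedback inhibitor, 2.86. Within the same pathway *Eif2ak3* (PERK), the eIF2 kinase of the endoplasmic reticulum, was lower, at 306 and 303 against 165 and 157 CPM (Log2FC −0.92 ± 0.10 SE, adjusted *P* = 0.00026), as was *Ddit4* (Log2FC −0.89). The same list had a median of 0.93 in early LPre-B cells. The effect differed between stages for 4 members, *Mthfd2* (1.87 against 0.60), *Slc7a1* (1.86 against 0.96), *Atf5* (1.03 against 0.22) and *Cebpg* (0.24 against −0.36), each more positive in sPre-B cells.

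The same direction was seen in cytosolic tRNA synthetases, which attach amino acids to tRNAs. Of 20 tested 14 were higher and none lower, with a median of 0.62, and leaving out any single sPre-B library gave between 13 and 14. *Cars* was at 36.4 and 44.4 CPM in Ctrl and 152 and 142 in cKO (Log2FC 1.87 ± 0.11 SE, adjusted *P* = 2.12e-05 by the quasi-likelihood test of edgeR), and *Yars* at 38.4 and 37.5 against 111 and 109 (1.53 ± 0.10 SE, adjusted *P* = 3.93e-05). *Hars*, *Qars*, *Kars*, *Farsb*, *Dars* and *Rars* had a Log2FC between −0.20 and 0.25 and did not pass the threshold. For *Aars* the effect was 1.30 in sPre-B cells, larger than the 0.54 of early LPre-B cells (difference 0.76, adjusted *P* = 0.0253).

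Promoters of these genes were searched for the letters TGATGNAAN, a composite element of the kind that ATF4 binds with C/EBP partners, on both strands of the 300 bases from 250 before to 50 after each RefSeq start site (GRCm38.p6). The letters were present in 4.5% of all 27025 promoters, in 3% of those of genes tested here and in 3.55% of those of genes higher in cKO. They were present in 9 of the 31 stress response genes with a promoter entry (29%), in 6 of the 20 of these that were higher (30%), in 5 of 13 tRNA synthetases (38.5%) and in 5 of the 9 of these that were higher (55.6%). Stretches of 60 bases around the match are shown for 5 of these genes, 5′ to 3′ on the strand of the gene with the match in capitals, so that its letters, orientation and distance from the start can be compared. *Asns* is at chr6:7693210-7693269 on the minus strand, *Chac1* at chr2:119351022-119351081 on the plus strand, *Atf3* at chr1:191183411-191183470 on the minus strand, *Pycr1* at chr11:120643818-120643877 on the minus strand and *Aars* at chr8:111033703-111033762 on the plus strand.
Asns: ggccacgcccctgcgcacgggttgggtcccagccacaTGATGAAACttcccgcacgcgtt
Chac1: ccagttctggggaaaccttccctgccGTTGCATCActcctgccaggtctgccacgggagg
Atf3: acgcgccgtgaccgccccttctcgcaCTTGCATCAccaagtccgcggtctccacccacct
Pycr1: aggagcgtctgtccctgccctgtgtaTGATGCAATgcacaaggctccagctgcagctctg
Aars: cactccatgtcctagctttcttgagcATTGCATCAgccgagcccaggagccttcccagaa
The match reads in the direction of the gene in *Asns* and *Pycr1* and in the opposite direction in the other 3. *Asns* had the largest Log2FC of the 5 (5.03), and *Atf3* and *Pycr1*, at under 2 CPM in every sPre-B library, had 1.98 and 1.94. *Atf3* did not pass without Ctrl replicate 1 (0.107) or cKO replicate 2 (0.0953). A match is a description of the sequence and shows no binding.

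Genes of the endoplasmic reticulum, where the related unfolded protein response acts, moved little. Of 30 chaperones and sensors none was higher by edgeR's quasi-likelihood test and 2 were lower, *Eif2ak3* as above and *Edem1*, which helps to degrade misfolded glycoproteins (174 and 160 against 91.8 and 96.5 CPM, Log2FC −0.83 ± 0.09 SE, adjusted *P* = 0.000238). The median was −0.05. The number of lower genes was 6 with DESeq2 or without early LPre-B Ctrl replicate 1 and that of higher genes 2 with DESeq2 and 2 in the fit blocked on replicate number.

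**Figure D3:**
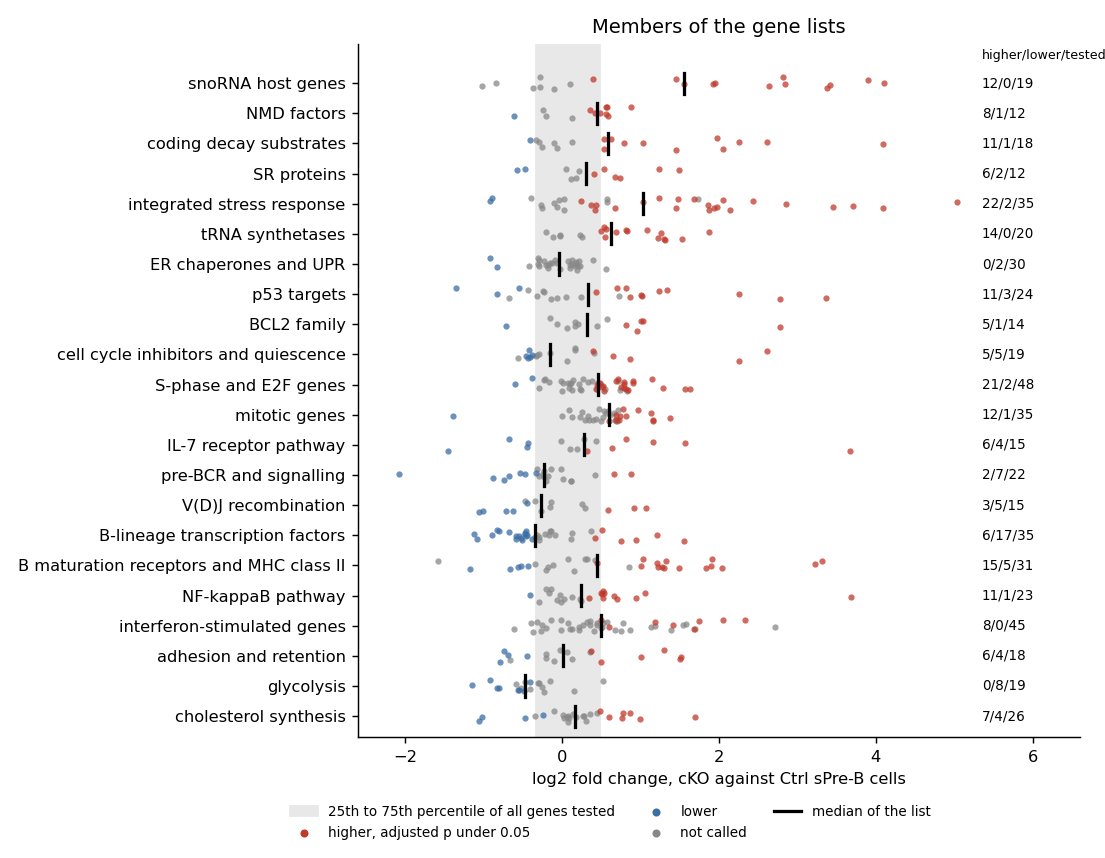
Log2FC between cKO and Ctrl sPre-B cells for each tested member of 22 gene lists, red for higher and blue for lower at an adjusted *P* under 0.05 and grey for the rest, with a black bar at the list's median, the grey band from the 25th to the 75th percentile of all genes (−0.33 to 0.48), and counts of higher, lower and tested members at the right. The medians of the snoRNA hosts (1.55), stress response (1.03), tRNA synthetases (0.62), mitotic genes (0.60), coding decay substrates (0.58) and interferon-stimulated genes (0.49) lie to the right of the band, and those of glycolysis (−0.47) and B-lineage transcription factors (−0.34) to its left.

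Targets of p53 were partly higher. Of 24 tested 11 were higher and 3 lower, with a median of 0.33. *Bbc3* (PUMA, chromosome 7, 16308398 to 16318334), which starts mitochondrial cell death, was at 5.31 and 4.82 CPM in Ctrl and 37.5 and 31.9 in cKO (Log2FC 2.78 ± 0.16 SE, adjusted *P* = 1.98e-05 by the quasi-likelihood test of edgeR). *Phlda3*, which restrains AKT, had 0.567 and 0.525 CPM against 6.45 and 4.88 (3.37 ± 0.28 SE, adjusted *P* = 8.68e-05). *Zmat3*, *Ccng1*, *Bax* and *Aen* had a Log2FC of 1.34, 0.87, 0.82 and 0.70. The lower members were *Trp53inp2*, *Plk2* and *Apaf1*, the last a part of the apoptosome, at −0.55 (167 and 156 against 106 and 116 CPM). Without cKO replicate 1 *Plk2* and *Apaf1* did not pass. *Cdkn1a* (p21) was higher in sPre-B cells by 2.26 and had 0.27 in early LPre-B cells (difference 1.99, adjusted *P* = 0.00384). *Phlda3*, *Bbc3*, *Zmat3* and *Ccng1* also differed between the stages, each more positive in sPre-B cells. In the BCL2 family 5 of 14 genes were higher and 1 lower. The higher ones were the death genes *Bbc3*, *Pmaip1*, *Bid* and *Bax* and the survival gene *Bcl2*, of which *Pmaip1* did not pass without Ctrl replicate 1, Ctrl replicate 2 or cKO replicate 1 (0.0564 to 0.0776) and *Bcl2* was at 0.946 and 0.780 against 1.8 and 1.74 CPM (Log2FC 1.03 ± 0.17 SE, adjusted *P* = 0.00257). The lower one was *Bcl2l1* (BCL-XL), a survival gene, at 279 and 275 against 158 and 181 CPM (Log2FC −0.71 ± 0.10 SE, adjusted *P* = 0.000821).

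Inhibitors of the cell cycle and genes of quiescence had 5 of 19 members higher, 5 lower and a median of −0.16, against 19.8% and 14.9% of all genes. *Cdkn1a* and *Gadd45g* were the largest increases. *Cdkn1b* (p27), the main inhibitor of resting lymphocytes, was at 243 and 235 CPM in Ctrl and 181 and 178 in cKO (Log2FC −0.41 ± 0.08 SE, adjusted *P* = 0.00585 by the quasi-likelihood test of edgeR). *Cdkn2d*, *Tob1*, *Tob2* and *Ccng2* were lower by a Log2FC between −0.46 and −0.38. The count of 5 lower genes was 2 without Ctrl replicate 1 and 1 without cKO replicate 1.

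Genes of DNA replication were higher in part. Of 48 S-phase and E2F genes 21 were higher and 2 lower, with a median of 0.46 against −0.26 in early LPre-B cells, where 1 was higher and 7 lower. Their summed level was 2186 and 1920 CPM in Ctrl and 2303 and 2513 in cKO. *Mcm7*, a subunit of the replicative helicase, was at 101 and 88.0 CPM in Ctrl and 164 and 191 in cKO (Log2FC 0.91 ± 0.14 SE, adjusted *P* = 0.00137 by the quasi-likelihood test of edgeR), and its effect differed from that in early LPre-B cells (−0.29, difference 1.20, adjusted *P* = 0.0167). *Pole*, the leading-strand polymerase, had 26.8 and 14.96 against 54.6 and 69.3 CPM (1.57 ± 0.24 SE, adjusted *P* = 0.00148). Leaving out single sPre-B libraries gave between 14 and 29 higher genes, the fewest without Ctrl replicate 2, and the 2 lower genes were 1 without Ctrl replicate 1 and 0 without cKO replicate 1. Mitotic genes depended more on which Ctrl library was used. Of 35 tested 12 were higher and 1 lower, with a median of 0.60, but all 35 were higher in Ctrl replicate 1 than in Ctrl replicate 2. Both cKO libraries lay above both Ctrl libraries for 23 of them, beside 36.5% of all genes tested. They lay above Ctrl replicate 2 for 34, a count for which no share over all genes was computed. Without Ctrl replicate 1 the count of higher genes was 30 and the median 1.03. It was 7 without Ctrl replicate 2 (median 0.26), 9 without cKO replicate 1 and 3 without cKO replicate 2, and with DESeq2 it was 21. *Bub1*, a spindle checkpoint kinase, was at 22.6 and 14.1 CPM against 44.6 and 51.3 (Log2FC 1.38 ± 0.20 SE, adjusted *P* = 0.00111), whereas *Mki67*, the common marker of cycling cells, was at 717 and 360 against 661 and 749 CPM, with groups that overlapped (Log2FC 0.39 ± 0.28 SE, adjusted *P* = 0.322). *Cdc25b*, a phosphatase that drives entry into mitosis, was the lower gene, at 268 and 240 against 84.0 and 110 CPM (Log2FC −1.39). Of 63 replication-dependent histone genes none was higher by edgeR's quasi-likelihood test and 2 were lower. Their summed level, 17771 and 9413 CPM in Ctrl, enclosed that of cKO, 12165 and 14277. The count of higher histone genes was 9 without Ctrl replicate 1, and that of lower ones was 6 without Ctrl replicate 2 and 0 without any other sPre-B library. In bulk RNA a larger number of cycling cells among those sorted and more of these transcripts per cell cannot be told apart, which holds for each gene group described here.

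*Il9r* (chromosome 11, 32187544 to 32205283), the receptor chain for IL-9 that signals through the common gamma chain and JAK kinases, was read 27 and 8 times in Ctrl and 5740 and 6967 times in cKO cells, or 0.319 and 0.114 against 62.2 and 55.7 CPM. The Log2FC was 8.04 (± 0.33 SE, adjusted *P* = 9.44e-06 by the quasi-likelihood test of edgeR), against 1.75 in early LPre-B cells (difference 6.29, SE 0.68, adjusted *P* = 0.00433). In the IL-7 receptor pathway 6 of 15 genes were higher and 4 lower, against 19.8% and 14.9% of all genes. *Ccnd2* (chromosome 6, 127125162 to 127152188), the D-type cyclin that IL-7 and STAT5 induce in large pre-B cells, was at 18.1 and 12.1 CPM in Ctrl and 227 and 158 in cKO (Log2FC 3.67 ± 0.25 SE, adjusted *P* = 4.07e-05), and its effect was larger than in early LPre-B cells (0.91, difference 2.76, adjusted *P* = 0.00612). *Jak3* had 18.5 and 22.6 against 48.0 and 43.7 CPM (Log2FC 1.16 ± 0.12 SE, adjusted *P* = 0.000248), whereas *Jak1* had a Log2FC of −0.43 and *Il7r* itself 0.43 (adjusted *P* = 0.0107 and 0.141). *Il7r* passed in the fit blocked on replicate number (0.0295), and *Jak1* did not pass without cKO replicate 1 (0.0878). The feedback inhibitors went in opposite directions, with *Socs1* at 74.6 and 72.3 against 26.96 and 26.5 CPM (Log2FC −1.46 ± 0.13 SE, adjusted *P* = 0.000103) and *Socs3* and *Socs2* higher by 1.57 and 0.81. The 4 lower genes were 2 without cKO replicate 1 and 2 without cKO replicate 2.

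Genes of the pre-B cell receptor and its signalling were lower more often than higher, 7 against 2 of 22, with a median of −0.23. Beside *Cd79a*, the lower genes were *Blk* (332 and 352 against 182 and 189 CPM, Log2FC −0.88 ± 0.09 SE, adjusted *P* = 0.000221 by the quasi-likelihood test of edgeR), *Prkcb*, *Vpreb3*, *Lyn*, *Btk* and *Pik3cd*, with values from −0.74 to −0.33. *Pik3cd* did not pass with no expression filter (0.0597) or when any 1 of the sPre-B libraries was left out (0.0518 to 0.177), and *Btk* did not without cKO replicate 1 (0.0518). *Cd79b*, *Syk* and *Ighm* had a Log2FC of −0.14, −0.23 and −0.18 and did not pass. The surrogate light chain genes *Vpreb1* and *Igll1*, which are shut off as cells leave the large pre-B stage, were at 5.71 and 4.91 against 9.24 and 10.3 CPM and at 6.28 and 5.76 against 8.77 and 10.2 CPM, a Log2FC of 0.88 (adjusted *P* = 0.0131) and 0.66 (adjusted *P* = 0.021). Neither passed without Ctrl replicate 2 or without cKO replicate 2, and *Igll1* did not pass without Ctrl replicate 1.

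The genes that cut and join immunoglobulin segments had 3 of 15 members higher, 5 lower and a median of −0.27, where 19.8% and 14.9% of all genes were higher and lower. *Rag1* (chromosome 2, 101638252 to 101649532), the catalytic subunit of the recombinase, was at 3508 and 2964 CPM in Ctrl and 1497 and 1612 in cKO (Log2FC −1.06 ± 0.24 SE, adjusted *P* = 0.00914 by the quasi-likelihood test of edgeR). *Rag2*, its neighbour and partner, was at 155 and 144 against 131 and 138 CPM (−0.15 ± 0.13 SE, adjusted *P* = 0.394). In both genes the effect was less negative than in early LPre-B cells, where it was −2.74 for *Rag1* (adjusted *P* of the difference 0.0315) and −1.04 for *Rag2* (0.0346). *Xrcc6* (Ku70), at 523 and 581 against 234 and 315 CPM, had a Log2FC of −1.01 (± 0.16 SE, adjusted *P* = 0.00178) and *Xrcc5* (Ku80), its partner in end joining, −0.63. *Paxx* and *Prkdc*, which act with Ku, were higher by 1.07 and 0.92. *Dntt*, which adds bases at heavy chain junctions, was at 6.597 and 4.44 against 2.78 and 3.89 CPM (Log2FC −0.72, adjusted *P* = 0.0253). Its effect in early LPre-B cells was −3.31, and the difference of 2.59 passed the test (adjusted *P* = 0.00433). The 5 lower genes were 2 without cKO replicate 1 and 3 without Ctrl replicate 1. *Rag1* did not pass without cKO replicate 1 (0.0623), and *Dntt* did not when either replicate 1 library was left out (0.151 each time) or with only the sPre-B libraries (0.0756).

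Kappa and lambda constant regions went in opposite directions. *Igkc* (chromosome 6, 70726435 to 70726754) was at 620 and 724 CPM in Ctrl and 1106 and 1180 in cKO (Log2FC 0.77 ± 0.12 SE, adjusted *P* = 0.00196 by the quasi-likelihood test of edgeR). The 5 kappa J segments tested had values from 0.08 to 0.45, none past the threshold. Of the light chain J and C segments, 1 was higher here, 2 in the fit blocked on replicate number and at most 3 in any alternative. *Iglc1* (chromosome 16, 19061752 to 19062071) was at 316 and 292 against 72.0 and 70.2 CPM (Log2FC −2.10 ± 0.36 SE, adjusted *P* = 0.00272) and its J segment *Iglj1* at 124 and 118 against 23.95 and 25.8 (−2.28 ± 0.23 SE, adjusted *P* = 0.000225). *Iglc2*, *Iglc3*, *Iglj2* and *Iglj3* were also lower, between −1.29 and −0.68, but *Iglc2* and *Iglc3* are near-identical and their reads may have been split. *Iglc3* did not pass when either replicate 2 library was left out (0.0569 and 0.0946). All 6 lambda J and C segments tested were thus lower and none of the 6 kappa segments. Of 103 kappa V segments 12.6% were higher and 3.88% lower, beside 19.8% and 14.9% of all genes. Of 3 lambda V segments 2 were lower. For *Iglc2* the effect differed from early LPre-B cells, where it was 1.30 (difference −2.45, adjusted *P* = 0.00387). Among heavy chain V segments, which the knocked-in allele does not need, 84 of 111 were lower, 2 were higher and the median was −4.90. Reads of near-identical V segments may have been split.

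Transcription factors of the B lineage were lower in 17 of 35 cases and higher in 6, with a median of −0.34. *Ebf1*, which specifies the lineage, was at 780 and 915 CPM in Ctrl and 471 and 501 in cKO (Log2FC −0.80 ± 0.14 SE, adjusted *P* = 0.00265 by the quasi-likelihood test of edgeR). *Myb* was at 1223 and 1386 against 635 and 767 (−0.90 ± 0.15 SE, adjusted *P* = 0.00219), and the E protein *Tcf12* and its inhibitor *Id3* had −1.08 and −1.12. *Spi1*, *Irf4*, *Runx1*, *Ets1*, *Bach2*, *Ikzf1* and *Foxo1* were lower by −0.83 to −0.38. *Pax5*, the factor that holds B cell identity, was at 514 and 583 against 541 and 439 CPM (−0.16, adjusted *P* = 0.359), with groups that overlapped. The higher factors were *Myc* (2.27 and 1.99 against 7.28 and 5.25 CPM, Log2FC 1.55 ± 0.21 SE, adjusted *P* = 0.000852), *Ikzf2*, *Nfkb2*, *Bcl6*, *Relb* and *Irf8*. Of these *Bcl6*, a repressor that protects pre-B cells during recombination, had 0.75 in sPre-B and −0.69 in early LPre-B cells (difference 1.43, adjusted *P* = 0.0301). Leaving out single sPre-B libraries gave between 8 and 15 lower factors, the fewest without cKO replicate 1, and 3 higher factors in each case. *Irf4*, *Bach2*, *Ikzf1*, *Foxo1*, *Ikzf2*, *Bcl6*, *Relb* and *Irf8* each did not pass in 1 or more of these (0.0572 to 0.202).

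Receptors of later B cell stages and MHC class II genes were higher in 15 of 31 cases and lower in 5, with a median of 0.45. *Fcer2a* (CD23, chromosome 8, 3680280 to 3694174), a marker of mature follicular B cells, was at 6.03 and 5.33 CPM in Ctrl and 83.8 and 29.9 in cKO (Log2FC 3.32 ± 0.44 SE, adjusted *P* = 0.000735 by the quasi-likelihood test of edgeR). *Ciita*, the master regulator of MHC class II, was at 31.6 and 27.7 against 126 and 86.3 (1.84 ± 0.18 SE, adjusted *P* = 0.000167), and *Cd83*, which keeps MHC class II at the surface, at 1.88 and 1.28 against 15.7 and 13.8 (3.22 ± 0.34 SE, adjusted *P* = 0.000252). In each of the 3 the level in cKO replicate 1 was the higher of the cKO pair. *H2-Eb1*, *H2-Aa*, *H2-Ab1*, *H2-DMa*, *H2-DMb1*, *H2-DMb2*, *H2-Oa*, *H2-Ob* and the invariant chain *Cd74* were higher by 0.45 to 2.04. Not all genes of maturation took part. The BAFF and APRIL receptors *Tnfrsf13c* and *Tnfrsf13b* had −0.52 and −0.66, and *Cd86* was at 5.07 and 5.50 against 2.88 and 1.79 CPM (−1.18 ± 0.29 SE, adjusted *P* = 0.0137). The effect in sPre-B cells differed from that of early LPre-B cells in 7 of the 31 genes, among them *Fcer2a* (0.08 in early LPre-B cells, difference 3.24), *Cd83* (0.85, 2.37), *Ciita* (0.21, 1.62) and *Cd86* (1.33, −2.51). The 5 lower genes were 2 without Ctrl replicate 2 and 1 without cKO replicate 2. *Tnfrsf13c* and *Cd86* did not pass when either replicate 2 library was left out (0.0588 to 0.16), *Tnfrsf13b* without cKO replicate 2 (0.0578), and *H2-Oa* and *H2-Ob* when either replicate 1 library was left out (0.0551 to 0.0918).

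Markers of other cell types were summed per library beside these changes. The gate was set to leave out immature and mature B cells by surface IgM, and T, myeloid and erythroid cells by the lineage stain. The 7 markers of immature and mature B cells summed to 589 and 673 CPM in Ctrl and 998 and 858 in cKO. Of the 7, 4 were higher, among them *Fcer2a*, *Cr2* and *Ighd*, whereas *Cxcr5*, *Ccr7* and *Cd22* did not pass the threshold, and none of the 7 was at 0 in any library. The 4 became 2 without Ctrl replicate 1, and *Ighd* did not pass when either replicate 1 library was left out (0.0913 and 0.0685). Those of pro-B and large pre-B cells summed to 1354 and 1059 against 1394 and 1779, of which *Il7r* and *Mki67* made up most. Those of small pre-B cells summed to 6818 and 6385 against 4885 and 5253, with *Rag1* as the largest part, and those of the whole B lineage to 6027 and 6699 against 4692 and 4256, with *Cd79a*, the locus that carries Cre, as the largest part of the difference. Myeloid markers summed to 314 and 370 against 221 and 253 CPM, of which *Itgam* made up most, and erythroid markers to 33.0 and 38.7 against 24.8 and 15.96. T and NK cell markers summed to 9.07 and 11.2 against 6.55 and 6.93 CPM, of which *Lck* made up most and was lower (Log2FC −0.84, adjusted *P* = 0.0061), with *Cd3g*, *Cd8b1*, *Ncr1* and *Gzma* too low to be tested. Plasma cell markers summed to 109 and 69.9 against 35.98 and 59.2 CPM, with *Sdc1* lower by −0.96 (adjusted *P* = 0.0138, and 0.0714 and 0.077 without Ctrl or cKO replicate 1). Those of plasmacytoid dendritic cells summed to 508 and 531 against 660 and 527 CPM, nearly all of it *Ly6d*, and *Ccr9* was higher, at 3.89 and 3.94 against 12.7 and 9.54 CPM (adjusted *P* = 0.000699). The part of these cells in the changes above was not tested.

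**Figure D4:**
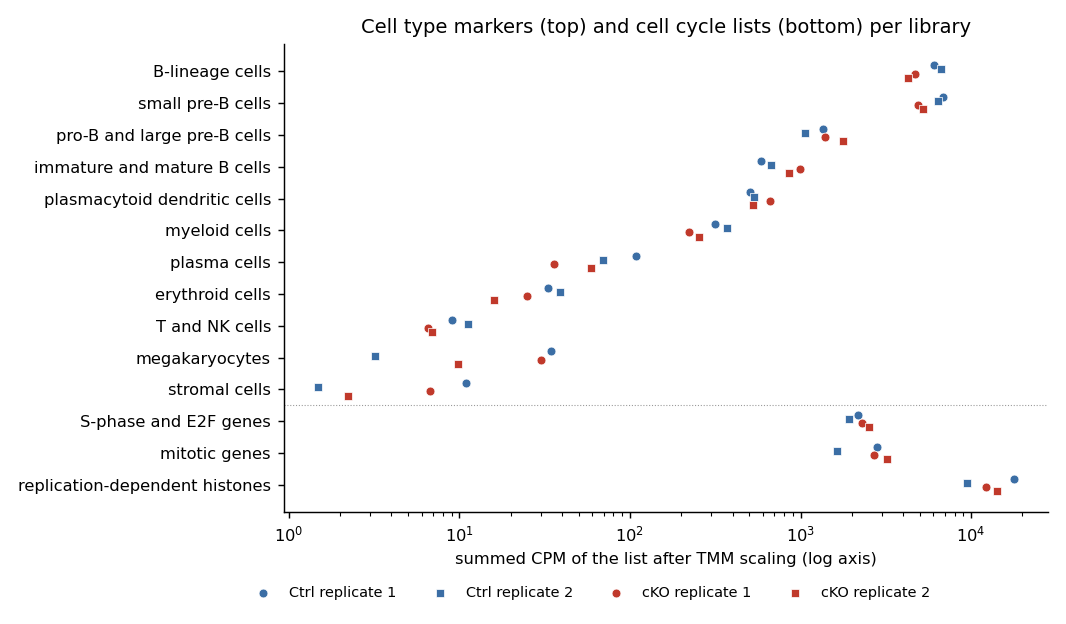
Summed CPM on a log axis of cell type marker lists (above the dotted line) and cell cycle lists (below it), Ctrl in blue and cKO in red, circles for replicate 1 and squares for replicate 2. The immature and mature B cell markers are higher and the small pre-B, B-lineage and myeloid markers lower in both cKO libraries, and the mitotic and histone sums differ more between the 2 Ctrl libraries than between the groups.

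The NF-kappaB pathway, which in B cells also acts downstream of CD40 and the BAFF receptor, had 11 of 23 genes higher and 1 lower (median 0.24). *Traf1* was at 0.946 and 0.596 CPM in Ctrl and 11.2 and 8.73 in cKO (Log2FC 3.68 ± 0.30 SE, adjusted *P* = 7.56e-05 by the quasi-likelihood test of edgeR). *Nfkb2*, the precursor subunit of the noncanonical branch, had 129 and 156 against 266 and 279 CPM (0.94 ± 0.11 SE, adjusted *P* = 0.000374), and *Relb*, *Map3k14*, *Traf2*, *Traf3* and *Birc3* of the same branch were higher by 0.50 to 0.66. The canonical subunits *Rela* and *Rel* had −0.07 and −0.14 and did not pass. For *Tnfaip3* (A20), an inhibitor induced by NF-kappaB, the effect was 0.52 in sPre-B and −1.21 in early LPre-B cells (difference 1.73, adjusted *P* = 0.00102). The 11 became 6 without Ctrl replicate 1 and 7 without cKO replicate 1, with *Relb*, *Map3k14* and *Birc3* each lost in 2 or more of the 4 (0.0551 to 0.155). Among 18 genes of adhesion and retention 6 were higher and 4 lower (19.8% and 14.9% of all genes), *Itgb1*, *Selplg* and *Cd93* among the latter with −0.74, −0.79 and −0.69. The 6 were 3 without Ctrl replicate 1 or without cKO replicate 1.

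Interferon-stimulated genes differed between the cKO libraries. Of 45 tested 8 were higher, a share close to the 19.8% of all genes, and none was lower, with a median of 0.49. Both Ctrl libraries were exceeded in 37 of the 45 by cKO replicate 2, in 19 by cKO replicate 1 and in 18 by both, the last beside 36.5% of all genes. For the counts of a single cKO library no share over all genes was computed. *Ly6a* (Sca-1, chromosome 15, 74994877 to 74998031) was at 0.757 and 0.794 CPM in Ctrl and 3.86 and 3.97 in cKO (Log2FC 2.33 ± 0.26 SE, adjusted *P* = 0.000352 by the quasi-likelihood test of edgeR), with a Log2FC of 0.09 in early LPre-B cells (difference 2.24, adjusted *P* = 0.0181). *Bst2* (tetherin), which holds budding virus at the cell surface, was at 7.01 and 6.35 against 22.2 and 22.9 CPM (1.75 ± 0.19 SE, adjusted *P* = 0.000265). *Ifih1* (MDA5), a sensor of double-stranded RNA, was at 2.80 and 2.71 against 9.40 and 13.4 CPM (2.05 ± 0.30 SE, adjusted *P* = 0.00126). *Ifi44* had 0.390 and 0.397 CPM in Ctrl and 0.564 and 4.60 in cKO, and *Mx2* 8.02 and 6.72 against 9.97 and 37.7, so that cKO replicate 2 alone stood out and neither passed (adjusted *P* = 0.0998 and 0.0826). Both passed in 5 alternatives each, with no expression filter at 0.0103 and 0.00629. cKO replicate 2 was at least 2 times cKO replicate 1 in 19 of the 45 genes, and the opposite was seen in 0. No share over all genes was computed for these counts either. Without cKO replicate 1, 16 genes were higher and the median was 1.01, and without cKO replicate 2, 7 were higher, 1 was lower and the median was −0.11. With no expression filter 18 were higher.

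The core letters GAAANNGAA of the interferon response element were present, on either strand, in 9.76% of all promoters, in 8.64% of those of genes tested, in 8.53% of those of genes higher in cKO, in 21 of the 32 interferon-stimulated genes with a promoter entry (65.6%) and in each of the 6 of the 8 higher genes that had one. Stretches of 60 bases are given for *Bst2* and *Ifih1*, which were higher in both cKO libraries, and for *Ddx60*, at 4.61 and 4.88 CPM in Ctrl and 7.64 and 17.5 in cKO, with matches in capitals and as GAAANNGAA or its reverse complement. *Bst2* is at chr8:71537563-71537622 on the minus strand, *Ifih1* at chr2:62646334-62646393 on the minus strand and *Ddx60* at chr8:61928027-61928086 on the plus strand.
Bst2: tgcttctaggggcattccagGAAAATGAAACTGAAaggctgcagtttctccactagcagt
Ifih1: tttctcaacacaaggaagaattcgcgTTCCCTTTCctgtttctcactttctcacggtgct
Ddx60: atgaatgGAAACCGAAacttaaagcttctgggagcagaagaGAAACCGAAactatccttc
The windows of *Bst2* and *Ddx60* hold 2 matches each, overlapping in *Bst2* and apart in *Ddx60*. *Ddx60* differed by more than 2 times between the 2 cKO libraries, whereas *Bst2* was at nearly the same level in both. The Log2FC of *Ddx60* was 1.41 with all libraries (adjusted *P* = 0.033 by the quasi-likelihood test of edgeR). It was 1.33 and 1.42 without Ctrl replicates 1 and 2, and 0.69 without cKO replicate 2.

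Single genes with the largest increases were mostly silent in Ctrl cells. *Olfr167* and *Olfr170*, olfactory receptor genes of chromosome 16, had 0 counts in both Ctrl libraries and 475 and 113 over both cKO libraries, at least 113-fold and 26.9-fold higher when set against a floor of 3 counts over the Ctrl group (adjusted *P* = 0.000202 and 0.00184 by the quasi-likelihood test of edgeR). *Olfr169*, of the same cluster, had 1 and 197 counts (ratio 141, 24.9 to 5581). *Slc47a1*, an exporter of organic cations, had 6 counts over the Ctrl and 1470 over the cKO libraries, a ratio of 175 (95% interval of the counts 80.1 to 477), and *Ighg2c*, a heavy chain constant region, 2 and 1179 (ratio 421, 116 to 3478). *Klkb1* and *Efcab3* had 2 counts each over Ctrl and 278 and 344 over cKO. These intervals cover counting error only.

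The 8 largest decreases were taken among genes with at least 50 counts in both Ctrl libraries, immunoglobulin V segments left out. *Fcrl6* (chromosome 1, 172595514 to 172618322), an Fc receptor-like protein that binds MHC class II, was counted 455 and 348 times in Ctrl and 2 times in each cKO library, 281-fold lower by the ratio (109 to 1035), with a Log2FC of −8.04 here and −8.02 in early LPre-B cells. *Tnfrsf19* (TROY, chromosome 14, 60963834 to 61046855) was at 62.1 and 62.0 CPM in Ctrl and 1.74 and 4.37 in cKO (Log2FC −4.33 ± 0.43 SE, adjusted *P* = 0.000197 by the quasi-likelihood test of edgeR). *Ret* (chromosome 6, 118151748 to 118197744), the receptor tyrosine kinase for GDNF ligands, was at 34.3 and 30.9 against 1.40 and 2.56 CPM (−4.03 ± 0.35 SE, adjusted *P* = 0.000107), and *Smtnl2* at 55.5 and 46.6 against 1.68 and 4.45 (−4.04 ± 0.43 SE, adjusted *P* = 0.000258). *Dmbt1*, *Dmrt3*, *Trim63* and *Rd3l* were lower by −6.06, −4.67, −4.17 and −4.06. *Ret*, *Smtnl2* and *Tnfrsf19* were also lower in early LPre-B cells, by −5.61, −5.22 and −2.43, and none of these 3 effects differed between stages at an adjusted *P* under 0.05 (0.159, 0.276 and 0.0887).

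Some changes ran along the chromosome. Runs of at least 4 neighbouring tested genes that all passed the test with a Log2FC of at least 1 were found 17 times, with 91 genes in all, and runs of lower genes 11 times with 100 genes, of which 8 runs with 70 genes were Ighv segments. Genes that failed the expression filter were skipped, and genes silent in Ctrl could pass it only through a group where they were high. Runs of such genes, as in the olfactory receptors, were thus favoured by the filter. The number of runs to be found without any clustering was not tested. The longest higher run held 13 genes of the interferon zeta cluster on chromosome 4 (88760774 to 88808380, Log2FC 1.81 to 3.79), whose members are near-identical, so that reads may have been split. *Ifnz* itself was counted 6 and 12 times in Ctrl against 117 and 95 times in cKO. A run of 9 on chromosome 16 (19285794 to 19706365) joined 8 olfactory receptor genes and *Lamp3*, which did not pass without Ctrl replicate 2 or cKO replicate 1 (0.0645 and 0.0816). A run of 7 on chromosome 7 (3712505 to 3915571) held paired immunoglobulin-like receptors, inhibitory and activating receptors that bind MHC class I, of which *Pirb* was at 18.8 and 23.5 against 86.3 and 43.3 CPM (Log2FC 1.62, adjusted *P* = 0.00483 by the quasi-likelihood test of edgeR) and *Pira2* at 13.7 and 18.7 against 147 and 72.6 (2.76, adjusted *P* = 0.000706). In 5 of these 7 the effect was different from that in early LPre-B cells. A run of 7 on chromosome 8 (3655770 to 3748984) contained *Fcer2a* and *Retn*, and a run of 5 on chromosome 17 (34263227 to 34344645) the MHC class II genes from *H2-Ab1* to *H2-Ea*. *H2-Ea*, counted 3 and 6 times in Ctrl against 17 and 37 times in cKO, did not pass with DESeq2 (adjusted *P* = 0.0638), with only the sPre-B libraries (0.0589) or with any of 5 single libraries left out (0.0518 to 0.19). The longest lower run was the 22 genes of the gamma protocadherin cluster on chromosome 18, whose variable exons are joined to shared last exons, so that 1 change in the shared exons is counted in each. *Pcdhga1* was at 28.7 and 27.5 CPM in Ctrl and 8.03 and 9.93 in cKO. On the X chromosome 12.6% of 562 genes were higher and 23.5% lower, with a median of −0.20, which was −0.17 without the female-type Ctrl replicate 1 and −0.22 without the male-type Ctrl replicate 2. The 132 lower X-linked genes were 63 without cKO replicate 1.

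Metabolic and housekeeping genes were mixed. In glycolysis 8 of 19 genes were lower and none higher (edgeR's quasi-likelihood test) and a median of −0.47. *Hk2* and *Pfkl*, an entry enzyme and the committed step, were at 8.07 and 7.38 against 2.73 and 4.21 CPM (Log2FC −1.15 ± 0.22 SE, adjusted *P* = 0.00467) and at 31.1 and 31.6 against 15.1 and 18.1 CPM (−0.92 ± 0.13 SE, adjusted *P* = 0.000932). *Pkm*, *Slc2a1* (GLUT1), *Hk1*, *Pgk1*, *Eno1* and *Gpi1* were lower by −0.83 to −0.41, and *Gapdh* and *Ldha* had −0.23 and −0.41 without passing. *Ldha* (adjusted *P* = 0.0753) did pass in 6 alternatives, among them DESeq2 (0.0245) and only the sPre-B libraries (0.0178). The 8 were 5 without cKO replicate 1 and 5 without cKO replicate 2, and *Hk1*, *Pgk1*, *Eno1* and *Gpi1* each did not pass without 1 or more of the sPre-B libraries (0.0512 to 0.177). For *Pfkl* the effect differed from early LPre-B cells (−0.05, difference −0.87, adjusted *P* = 0.0343). Of 26 cholesterol genes 7 were higher and 4 lower, against 19.8% and 14.9% of all genes. Among the lower ones was the sterol sensor *Scap* at 240 and 213 against 97.3 and 120 CPM (−1.06 ± 0.13 SE, adjusted *P* = 0.000531). The 7 were 4 without Ctrl replicate 2, and the 4 were 2 without each of the sPre-B libraries in turn. Of 85 cytosolic ribosomal protein genes 2 were higher and 2 lower (median −0.09), of 85 respiratory chain subunits 2 and 5 (−0.13), and of 39 proteasome subunits 2 and 0 (−0.08). Without early LPre-B Ctrl replicate 1 the lower genes were 9 ribosomal, 15 respiratory and 6 proteasome genes. The 5 lower respiratory genes were 1 without Ctrl replicate 1, cKO replicate 1 or cKO replicate 2, and 8 with DESeq2. The 2 higher ribosomal genes were 0 without Ctrl replicate 2, cKO replicate 1 or cKO replicate 2, and the 2 lower ones were 8 with DESeq2.

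The largest differences between the stages were taken among genes past the threshold for the difference with at least 50 counts in each sPre-B library of the higher group, V segments left out. A gene with no name in RefSeq (Entrez 100502579) had the largest positive difference, 7.51, at 0.532 and 0.496 CPM in Ctrl and 2.21 and 2.54 in cKO sPre-B cells and at most 0.0513 CPM in early LPre-B cells (adjusted *P* = 0.0108). Both cKO early LPre-B libraries had 0 counts, so the size of this difference depends on the fit. *Gm15448*, a paired immunoglobulin-like receptor gene, went from 1.02 and 1.16 CPM to 22 and 9.51 in sPre-B cells (Log2FC 3.85) and had −2.68 in early LPre-B cells (difference 6.53, SE 0.79, adjusted *P* = 0.00676 by the quasi-likelihood test of edgeR). *Retn* and *Tex45*, both on chromosome 8, had differences of 6.48 and 6.10. In the other direction *Ighd4-1*, a diversity segment of the heavy chain locus, had the largest difference, −4.58 (adjusted *P* = 0.0269), but its effect in sPre-B cells was −0.88 with all libraries and reversed to 0.74 without Ctrl replicate 1. It was at 60.5 and 11.4 CPM in Ctrl and 20.9 and 18.2 in cKO sPre-B cells, where it did not pass the threshold, and was higher by 3.70 in early LPre-B cells. *Asph*, an aspartyl hydroxylase, went from 18.7 and 13.8 to 1.49 and 2.66 CPM in sPre-B cells (−2.96) and had 0.35 in early LPre-B cells (difference −3.31, SE 0.38, adjusted *P* = 0.00545). *Ryr2*, *Ifitm1* and *Alox5* had differences of −3.61, −3.27 and −3.23, and their levels in sPre-B cells were at most 4.07 CPM.

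**Figure D5:**
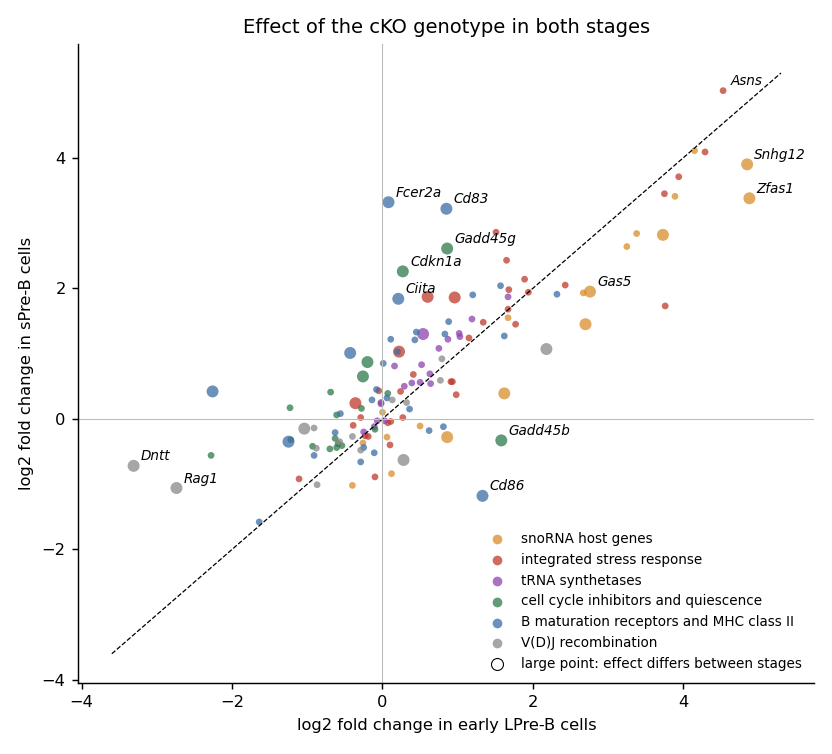
Log2FC of cKO against Ctrl in early LPre-B cells (x axis) and sPre-B cells (y axis) for the members of 6 gene lists, with large points where the difference between stages passed an adjusted *P* of 0.05 and a dashed line where the effects are equal. *Zfas1*, *Snhg12* and *Gas5* lie below the line, *Fcer2a*, *Cd83*, *Ciita*, *Cdkn1a* and *Gadd45g* above it, and *Asns* and most tRNA synthetases near it.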

How the data were processed

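RNA from 8 libraries, 2 per group, was sequenced, and per the labels and methods the authors used Trim Galore for trimming, HISAT2 (unstranded) for alignment to mm10 and featureCounts for counting per gene (versions and the strand setting of the counting not given in the sources used here). The deposited values are whole-number counts, not normalized, keyed by Entrez gene ID, of which 25275 of 27179 were named from RefSeq. Testing used edgeR 4.0.16 in R 4.3.3 (filterByExpr, TMM factors, quasi-likelihood F test, two-sided, 4 group means over all 8 libraries, Benjamini-Hochberg over all genes tested, threshold 0.05). The difference between stages was a contrast of both effects. On data simulated for this comparison 47 of 98 genes changed by a Log2FC of 1 and 89 of 99 changed by 2 were recovered, and 8 of 17179 unchanged genes were called. The simulation changed far fewer genes than were called here and gave every gene the same dispersion, so these rates may not carry over. Alternatives were DESeq2 1.42.0, a likelihood-ratio test, median-ratio factors, no filter, only the sPre-B libraries, replicate blocks, immunoglobulin genes left out and each library left out. Members and gene lists were chosen with earlier results of these data known. Named genes were a set of 14 genes, the 2 called members with the lowest adjusted *P* per list and direction, the 8 largest increases and decreases and the 5 largest stage differences each way (50 counts or more required in both libraries with the higher level, groups not overlapping for the former, V segments left out). Other genes were chosen after their values were seen. Of 227 genes named in the text, 48 overlap another annotated gene (for example *Ddit3* with *Mars1* and *Gas5* with *Zbtb37*), and their counts are uncertain. Some genes are not reported here. Intervals of ratios cover counting error only.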

Additional observations from a re-analysis of the deposited data

Results flagged for a closer look

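The effect of the cKO genotype differed between sPre- and early LPre-B cells for 750 genes by the contrast of both effects (edgeR's quasi-likelihood test, adjusted *P* under 0.05). Among genes named here the difference of Log2FC (sPre- minus early LPre-B cells) was more positive for the following. It was 7.51 for the gene with Entrez ID 100502579, 6.53 for *Gm15448*, 6.48 for *Retn*, 6.29 for *Il9r*, 6.10 for *Tex45*, 3.48 for *Pira2* and 2.32 for *Pirb*. Among B cell genes it was 3.24 for *Fcer2a*, 2.68 for *Cxcr5*, 2.37 for *Cd83*, 1.62 for *Ciita*, 1.43 for *Bcl6*, 1.41 for *Vpreb1* and 0.62 for *Foxo1*, for the myeloid marker *Itgam* it was 0.90, and among recombination genes 2.59 for *Dntt*, 1.68 for *Rag1* and 0.89 for *Rag2*. In signalling it was 2.76 for *Ccnd2*, 2.45 for *Traf1*, 1.73 for *Tnfaip3*, 1.26 for *Birc3*, 0.85 for *Jak3* and 2.24 for *Ly6a*. For p53 and cell cycle genes it was 1.99 for *Cdkn1a*, 1.77 for *Phlda3*, 1.76 for *Gadd45g*, 1.43 for *Zmat3*, 1.26 for *Bub1*, 1.20 for *Mcm7*, 1.07 for *Ccng1* and 0.98 for *Bbc3*. In the stress response and splicing it was 1.27 for *Mthfd2*, 0.91 for *Slc7a1*, 0.81 for *Atf5*, 0.76 for *Aars*, 0.60 for *Cebpg* and 0.62 for *Srsf11*.

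The difference was more negative in sPre-B cells for *Zfas1* (−1.49), *Snhg12* (−0.96), *Snhg1* (−0.91) and *Gas5* (−0.81) among snoRNA hosts and for *Smg9* (−0.99), *Smg6* (−0.71) and *Gadd45b* (−1.91). It was −1.06 for *Lck*, −1.10 for *Paxx*, −0.91 for *Xrcc5*, −2.45 for *Iglc2* and −2.51 for *Cd86*. It was −0.97 for *Scap* and −0.87 for *Pfkl*, and −4.58 for *Ighd4-1*, −3.61 for *Ryr2*, −3.31 for *Asph*, −3.27 for *Ifitm1* and −3.23 for *Alox5*.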

How the results depend on the processing

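Counts of higher and lower genes kept within 1.5 times of 3505 and 2629 under DESeq2 (3385 and 3154), the likelihood-ratio test, median-ratio factors, no filter, only the sPre-B libraries and immunoglobulin genes left out. Leaving out single libraries gave 2258 to 3381 higher genes (2258 without cKO sPre-B replicate 1, 2335 without Ctrl sPre-B replicate 1) and 1366 to 3256 lower genes (1366 without cKO sPre-B replicate 1). In the fit with a replicate block 3714 were higher and 2909 lower, and 3455 of the 3505 higher genes were shared. Same-numbered sPre-B libraries were correlated by 0.0858 in their deviations, so the numbers were not taken to pair Ctrl with cKO. Between stages same-numbered libraries were correlated by 0.395 in Ctrl and 0.254 in cKO, and Ctrl replicate 2 was male-type at both stages.

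Among the counts over all genes, the 750 stage differences were the least stable. They were 1718 with DESeq2, 1508 with the likelihood-ratio test, 1575 with no filter, 952 with the replicate block and 2142 with a block by animal, a pairing that the labels do not state. Leaving out single libraries gave 126 to 902. For early LPre-B cells it was 416 and 242 without Ctrl replicates 1 and 2, and 126 and 248 without cKO replicates 1 and 2. For sPre-B cells it was 254 without Ctrl replicate 2, and 251 and 472 without cKO replicates 1 and 2. The cause was not tested.

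For single genes 3656 settings gave the same side of the threshold, with the same direction where a gene passed, 173 were weaker and 25 stronger. A gene that passed in neither fit was counted as the same whatever its direction. *Ighd4-1* (Log2FC −0.88 with all libraries, not past the threshold) reversed, to 0.74, without Ctrl sPre-B replicate 1, and was −1.66 without Ctrl sPre-B replicate 2. Among counts of list members, 172 of settings moved by over 1.5 times and 1054 did not. Scaling by median-ratio factors shifted the median of all genes by −0.0355 (log2). Where a lone library stood for its group it was assumed to vary like the other groups. With 2 libraries a group, small changes may be missed.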
